A study of Homo sapiens with 40 samples.

Results

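IL-6 signalling through JAK and STAT3 was followed over 10 genes: the cytokine IL6, its receptor chains IL6R and IL6ST, the kinases JAK1 and JAK2, the transcription factor STAT3, the feedback inhibitors SOCS1, SOCS3 and CISH, and the STAT target kinase PIM1. The genes were chosen by name, and every probe annotated with 1 of these symbols was taken: 36 of 15246 probes, and 10 of 4604 named genes. All 10 were measured, by 2 to 6 probes each, and no filter on low values was applied. The study lowered caspase-10 in myeloma cells to define its expression signature, and used lymphoma cells as the control. All lines carried a retroviral shRNA against CASP10 under doxycycline control and had been selected with puromycin, so the uninduced reference cells carried the vector too. Cells were induced with 20 ng/ml doxycycline for 24 to 120 hours, and 50 ug of total RNA of induced (Cy5) and uninduced (Cy3) cells of the same day was hybridised to 2-colour lymphochip arrays. The groups were SKMM1 with shCasp10-2 (12 arrays, 3 repeats), H929 with shCasp10-2 (8 arrays, 2 repeats), H929 with shCasp10-3 (4 arrays), KMS12 with shCasp10-2 (4 arrays) and KMS12 with shCasp10-3 (4 arrays). SKMM1, H929 and KMS12 are myeloma lines, that is, malignant plasma cells. The B-cell lymphoma lines OCI-Ly7 and OCI-Ly19 with shCasp10-2 had 2 arrays each, on days 3 and 4. On 4 further arrays of SKMM1 with shCasp10-2 the reference was SKMM1 induced for a control shRNA, so that doxycycline was in both channels.

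IL-6 is a growth and survival factor of plasma cells and of many myelomas. It binds IL6R, and the pair joins IL6ST (gp130), which activates JAK1 and JAK2; these phosphorylate STAT3, which enters the nucleus and switches on targets such as PIM1 and SOCS3. SOCS proteins and CISH are induced by STATs and shut the receptors or kinases down again, so their mRNA is often read as a trace of STAT activity.

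STAT proteins bind a short palindrome, TTCNNNGAA. It was searched in the 250 bases upstream of each RefSeq transcription start (GRCh38.p14). The motif is its own reverse complement, so a single search covers both strands, and 2306 of 35116 promoters (6.57%) held it. All 10 genes were matched, and CISH alone held it, in 4 copies lying between 241 and 104 bases before the start. Only 5 of the 35116 promoters (0.0142%) held 4 or more copies. The promoters of CISH (chr3:50611775-50612024, minus strand) and SOCS1 (chr16:11256205-11256454, minus strand) are shown 5' to 3' in gene orientation. SOCS1 came nearest to the threshold over the myeloma lines, and CISH passed between lymphoma and myeloma. Capitals mark the motif, and SOCS1 has none in this window.
CISH: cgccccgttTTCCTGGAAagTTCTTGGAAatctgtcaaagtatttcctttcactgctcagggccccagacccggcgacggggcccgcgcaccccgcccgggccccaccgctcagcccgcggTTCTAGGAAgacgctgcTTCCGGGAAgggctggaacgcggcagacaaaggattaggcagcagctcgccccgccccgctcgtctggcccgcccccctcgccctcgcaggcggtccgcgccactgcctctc
SOCS1: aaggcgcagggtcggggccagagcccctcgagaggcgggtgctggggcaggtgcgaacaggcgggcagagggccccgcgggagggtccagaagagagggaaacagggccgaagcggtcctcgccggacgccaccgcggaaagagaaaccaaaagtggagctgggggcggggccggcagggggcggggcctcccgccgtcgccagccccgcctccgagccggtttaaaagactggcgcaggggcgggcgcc
A match is a description of letters and was not tested as a binding site.

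Values are log2 ratios of induced to reference cells, so values above 0 mean more RNA in the induced cells; they are differences and not levels, so that neither expression levels nor the presence of plasma cell markers can be read from them. The base of the logarithm and the direction were not stated and were taken from the dyes; that the sign is Cy5 over Cy3 is likely. On 12 of the 40 arrays more than 10% of probes lay beyond 3 in size, and these are called wide arrays; they include days 2 to 4 of SKMM1 repeat 2. The titles of the SKMM1 day 5 arrays name repeats 1 and 2; by the order of their database numbers, and against those titles, they are given here as day 5 of repeats 2 (a wide array) and 3. Fits of days 2 to 4 do not use them. Array medians ranged from -2.14 to 0.36. The arrays of SKMM1 repeats 2 and 3 ran against each other, with Pearson's r over all probes below 0 in 16 of 16 pairs (-0.517 to -0.157), although the labels state the same dyes; the sign was kept, and values with a repeat turned are given where they differ. CASP10, the target, was below 0 on 29 of 32 myeloma arrays and on all 4 control shRNA arrays. Of its 6 probes, 30438 and 32624 were below 0 on only 9 and 7 of the 21 myeloma arrays that were not wide. Over days 2 to 4, wide arrays included, CASP10 averaged 0.01 in SKMM1 repeat 3 and -0.08 in H929 repeat 2. In the other myeloma courses it averaged between -1.62 and -0.32. Without wide arrays H929 with shCasp10-3 kept only 1 of these arrays, day 4, where CASP10 read 0.025 and was not lower. H929 repeat 1 then averaged -0.351, against -1.42 with its wide array. On both arrays labelled OCI-Ly7 it was above 0, at 2.04 and 1.5, so the library labelled OCI-Ly7 did not show a lower target, and on OCI-Ly19 it was 0.12 and -0.24, on either side of 0. The 7 plasma cell markers had a median of -0.0233 over the myeloma arrays of days 2 to 4 that were not wide, with 4 of 7 below 0. Of the T and NK cell markers 5 of 5 were below 0, with a median of -0.204; the part of these shifts in the results was not tested.

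None of the 10 genes changed past the threshold over the 3 myeloma lines, and the inhibitor SOCS1 came nearest, lower in induced cells. In bulk RNA, fewer cells expressing a gene and less RNA per cell cannot be told apart. In the limma fit of single arrays of days 2 to 4 without wide arrays, 0 of the 10 genes passed a Benjamini-Hochberg adjusted p of 0.05, where 479 of 9681 features (4.95%) did. At an unadjusted p under 0.05 there was 1 gene, SOCS1, where 21.9% of all features reached that. In the limma fit on course means of all arrays 0 of 10 passed and 0% of all features did, and 1 of 10 against 4.82% had an unadjusted p under 0.05. A course is the days of 1 line, hairpin and repeat. Without wide arrays 7 of the 10 lay above 0, with a median of 0.0285 against 0.0118 for all features. With all arrays 10 of 10 lay below 0, with a median of -0.195, while all features had a median of -0.274. The direction of most of these genes therefore turned with the wide arrays.

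**Figure D1:**
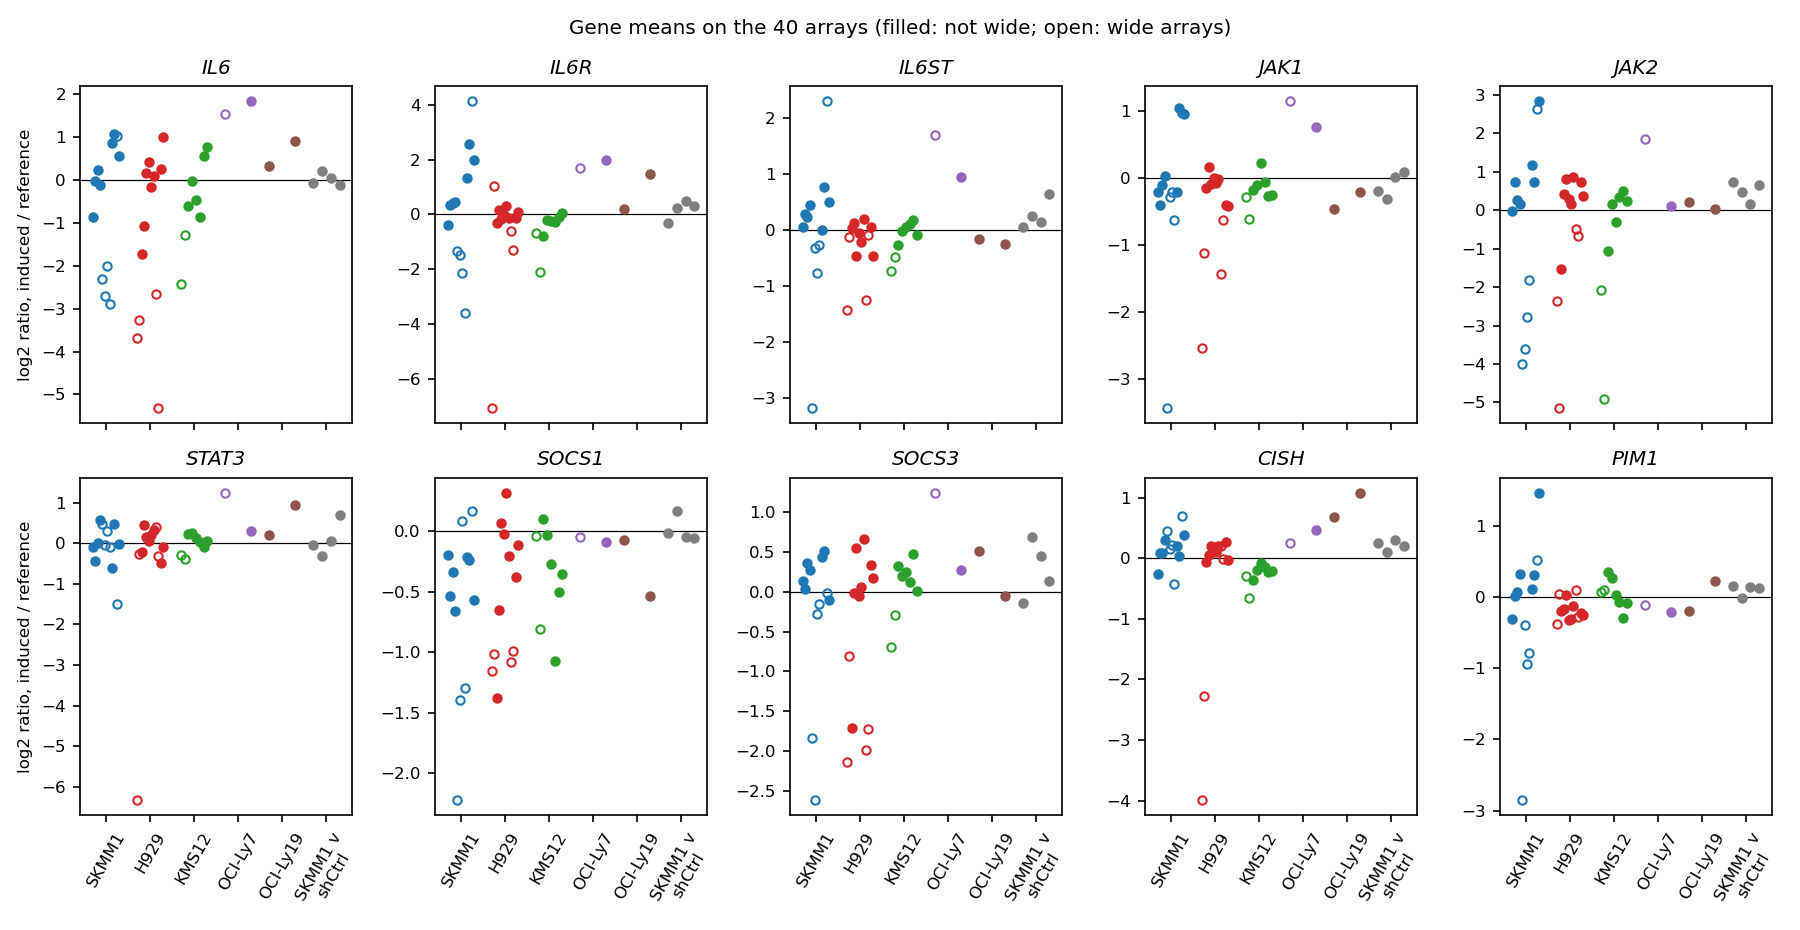
Each panel plots 1 gene (mean of its probes, log2 ratio on the vertical axis) on all 40 arrays by cell line; points are single arrays, filled where the array is not wide and open where it is wide, and the last group is SKMM1 against control shRNA. The lowest points are open circles in every panel, such as IL6R at -7.07 and STAT3 at -6.32 in H929, and SOCS1 has 18 of its 21 filled myeloma points below 0.

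**Figure D2:**
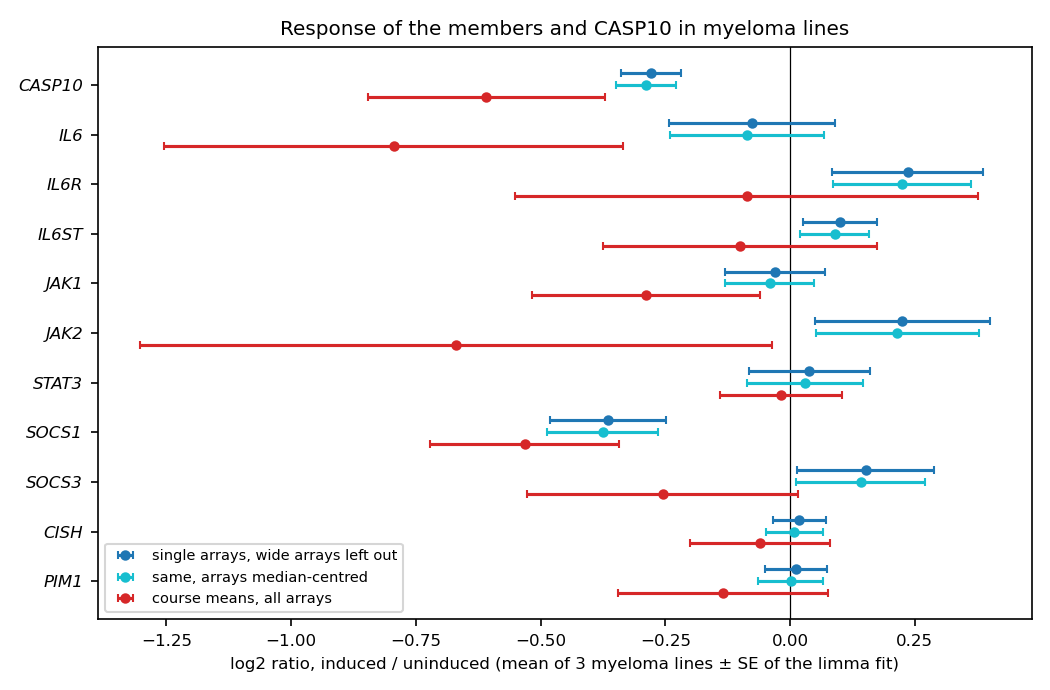
Points are the mean log2 ratio of the 3 myeloma lines from limma and bars its SE, for single arrays without wide arrays, the same after median-centring, and course means of all arrays. CASP10 and SOCS1 lie below 0 in each fit, while JAK2 is at 0.22 without wide arrays and -0.67 with all of them.

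IL6, the ligand, did not pass, and its values spread widely between arrays. On the 21 myeloma arrays that were not wide it ranged from -1.72 to 1.06, with 10 below and 11 above 0. Its response was -0.08 (SE 0.166, limma adjusted p = 0.845) without wide arrays and -0.79 (SE 0.46, adjusted p = 0.682) on course means of all arrays. In SKMM1 repeat 1 it read -0.87, -0.03, 0.23 and -0.13 on days 1 to 4, and in SKMM1 repeat 3 0.85, 1.06 and 0.56 on days 2, 3 and 5. The repeats of this line did not overlap on days 2 and 3. Of its 5 probes none passed, and they ranged from -0.905 to 0.26.

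IL6R, the chain that binds IL-6, was higher in induced SKMM1 cells and lower or near 0 in the other myeloma lines. In SKMM1 repeat 1 it was -0.38 on day 1 and then 0.36, 0.41 and 0.44 on days 2 to 4. Repeat 3 gave 1.32 and 2.55 on its first days (2 and 3), 4.13 on the wide array of day 4, and 2.00 on day 5. In KMS12 the 5 arrays of days 2 to 4 that were not wide read -0.78 and -0.19 with shCasp10-2, and -0.23, -0.28 and -0.11 with shCasp10-3. In H929 the 6 such arrays lay between -0.33 and 0.32. The 5 SKMM1 arrays thus lay above every KMS12 and H929 array of this set. The wide arrays of SKMM1 repeat 2 went the other way, with -1.34, -1.47, -2.14 and -3.59 on days 2 to 5. The rise in SKMM1 was 1.07 (SE 0.272, limma adjusted p = 0.0175), in a fit that called 18% of all features. SKMM1 exceeded KMS12 by 1.40 (SE 0.385, adjusted p = 0.0399; 7.53% of features called) and H929 by 1.11 (SE 0.364, adjusted p = 0.132; 0.0103% called). All 3 IL6R probes were above 0 in SKMM1, and 2 passed when probes were fitted singly, probe 34452 at 0.797 and probe 35215 at 1.88 (17.8% of all probes passed there).

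The size of this IL6R difference rested on SKMM1 repeat 3. CASP10 in that repeat read -0.024, -0.298 and 0.354 on days 2 to 4, the last on a wide array. Without that repeat the SKMM1 response was 0.401 (adjusted p = 0.316) and the excess over KMS12 0.725 (adjusted p = 0.195). With its sign turned they were -0.674 and -0.341, and with all arrays the SKMM1 response was 0.474 (adjusted p = 0.894). Without either KMS12 course the excess over KMS12 was also lost, at 1.28 without shCasp10-2 and 1.55 without shCasp10-3 (adjusted p = 0.31 and 0.0924). On days 2 and 3 of repeat 3, 5.48% and 7.48% of all probes were above 3, and the part of this tail in the IL6R value was not tested.

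IL6ST, the shared signalling chain of the IL-6 family, did not pass in SKMM1, and its repeats there differed in sign. In repeat 1 it read 0.07, 0.30, 0.25 and 0.46 on days 1 to 4. In repeat 3 it read 0.00, 0.77 and 0.50 on days 2, 3 and 5. None of these lay below 0, while the wide arrays of repeat 2 all did, at -3.18, -0.32, -0.76 and -0.26 on days 2 to 5. Without wide arrays the SKMM1 response was 0.36 (SE 0.134, limma adjusted p = 0.0695), against -0.06 in H929 and 0.01 in KMS12. Over the 3 lines it was 0.10 (SE 0.0747, adjusted p = 0.47).

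The kinases and STAT3 did not pass. JAK1 was -0.03 (SE 0.1, limma adjusted p = 0.899), with 15 of 21 arrays below 0, and JAK2 was 0.22 (SE 0.175, adjusted p = 0.489), with 17 of 21 above 0. JAK2 ranged from -1.54 to 2.83 on these arrays, while STAT3 kept between -0.61 and 0.57. STAT3, the factor at the centre of the pathway, had a response of 0.04 (SE 0.122, adjusted p = 0.898), and 13 of 21 arrays were above 0. In SKMM1 repeat 1 it read -0.09, -0.43, 0.01 and 0.57 on days 1 to 4, which spans nearly its whole range.

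SOCS1, which binds and blocks the JAK kinases, was the gene most often lower. It was below 0 on 27 of 32 myeloma arrays (lowest -2.22, median -0.37, highest 0.32) and on 18 of the 21 that were not wide (lowest -1.38, median -0.27). The means of 7 of 8 courses were below 0, with a mean of -0.545 (SD 0.453, n = 8; two-sided exact sign-flip test p = 0.0234, unadjusted, 1 of 10 genes so tested). With all arrays the median of all features was itself -0.274. Without wide arrays 5 of 7 courses were below 0, at -0.371 (SD 0.392, n = 7; exact sign-flip p = 0.0625). On course means of all arrays the limma response was -0.53 (SE 0.19, adjusted p = 0.682), or -0.271 (adjusted p = 0.999) with the sign of SKMM1 repeat 2 turned. On single arrays it was -0.37 (SE 0.117, adjusted p = 0.0771), and the lines were alike in size, with SKMM1 at -0.38, H929 at -0.38 and KMS12 at -0.33. The differences between lines lay between -0.01 and -0.05, with SE from 0.281 to 0.297. The courses differed more than the lines did. H929 repeat 1 read -1.38 and -0.66 on days 3 and 4, and H929 repeat 2 0.07, -0.03 and 0.32 on days 2 to 4. In KMS12, shCasp10-3 gave -0.27, -1.07 and -0.51 on days 2 to 4 and shCasp10-2 0.10 and -0.03 on days 3 and 4, so on these days the 2 H929 courses with shCasp10-2 did not overlap, nor did the 2 KMS12 courses. H929 with shCasp10-3 read -0.38 on day 4. The gaps between courses lay mainly in 1 of the 3 SOCS1 probes, 24697. On day 3 it read -4.159 in H929 repeat 1, where probes 17691 and 35221 read -0.081 and 0.099. In KMS12 with shCasp10-3 it read -2.535 on day 3, where they read -0.204 and -0.481. On those 2 probes the H929 courses overlapped on days 3 and 4, while KMS12 with shCasp10-3 stayed lower than shCasp10-2. The mean over 8 courses was -1.39 for probe 24697, and -0.084 and -0.162 for the others.

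SOCS1 passed in some settings. After median-centring its response was -0.375 (limma adjusted p = 0.05, just under the threshold; 6.42% of features called), and with wide arrays defined at 5% of probes it was -0.369 (adjusted p = 0.0086), in a fit that called 2594 of 9681 features. Without H929 repeat 2 it was -0.504 (adjusted p = 0.0181; 632 features called).

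SOCS3, a STAT3-induced inhibitor that docks on IL6ST, was above 0 on 17 of 21 arrays as a mean of its 3 probes. Its lowest value was -1.71 on day 3 of H929 repeat 1. Its response was 0.15 (SE 0.138, limma adjusted p = 0.565). The probes differed: 29315 had a median of 0.58 on these arrays, with 5 of 21 below 0. Probes 35681 and 37258 both had a median of -0.04, with 13 and 11 of 21 below 0. CISH, an inhibitor induced chiefly through STAT5, was 0.02 (SE 0.0525, adjusted p = 0.884) over the 3 lines. As gene means the lines differed in sign: the 5 SKMM1 arrays of days 2 to 4 lay between 0.03 and 0.30 and the 5 KMS12 arrays between -0.35 and -0.09. That difference was 0.34 (SE 0.133, limma adjusted p = 0.109) and did not pass. On these SKMM1 arrays CISH probe 27725 averaged 0.412, and probes 17233 and 29310 averaged 0.0152 and -0.0072. In KMS12 they averaged -0.324, -0.105 and -0.175. With array medians subtracted, the CISH gene mean was 0.116 in SKMM1 repeat 1 and -0.0798 in repeat 3.

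PIM1, a survival kinase that STAT3 and STAT5 induce, was 0.01 (SE 0.0626, limma adjusted p = 0.944) as a mean of its 4 probes. In H929 it lay below 0 on 5 of the 6 arrays of days 2 to 4 that were not wide, between -0.32 and 0.02, with a response of -0.20 (SE 0.1, adjusted p = 0.838). On 8 myeloma courses of all arrays its mean was -0.159 (SD 0.534, n = 8).

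The mean over probes hid differences between probes of the same gene. When each probe was fitted alone, which was added after the gene means were seen, 3 of the 36 probes passed in the myeloma response, all lower, where 6.57% of 15246 probes did. They were PIM1 probe 17231 at -0.282 (SE 0.0714, limma adjusted p = 0.027), JAK1 probe 33435 at -0.449 (SE 0.0854, adjusted p = 0.00881) and SOCS1 probe 35221 at -0.276 (SE 0.0785, adjusted p = 0.0434). PIM1 probe 17231 was below 0 on 28 of 32 arrays and on 20 of 21 that were not wide, and its mean was below 0 in 8 of 8 courses (-0.275, SD 0.145, n = 8). The other 3 PIM1 probes were 0.112, 0.0338 and 0.18 and did not pass. On SKMM1 repeat 1 probe 17231 read -0.15, -0.51, -0.61 and -0.21 on days 1 to 4, and against the control shRNA -0.26, -0.87, -0.83 and -0.56. On OCI-Ly19 it was -1.51 and -0.996, while on OCI-Ly7 it was -0.09 and 0.00. JAK1 probe 33435 was below 0 on 19 of 21 arrays that were not wide, while JAK1 probe 30184 reached 6.08 there and had a response of 0.503 (SE 0.408). The JAK1 gene mean near 0 thus averaged probe estimates of opposite sign. The value of 6.08 was day 3 of SKMM1 repeat 3. Over the 21 arrays probe 30184 had a median of 0.12, and in KMS12 it averaged -0.0442. Over courses without wide arrays JAK1 probes 17061 and 29959 averaged -0.148 and -0.128, and probe 34581 averaged 0.0169. The 3 SOCS1 probes were all below 0, at -0.137, -0.682 and -0.276. Which transcripts the probes of a gene read is not given in the sources used here, and which probe gives the gene's change was not tested.

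**Figure D3:**
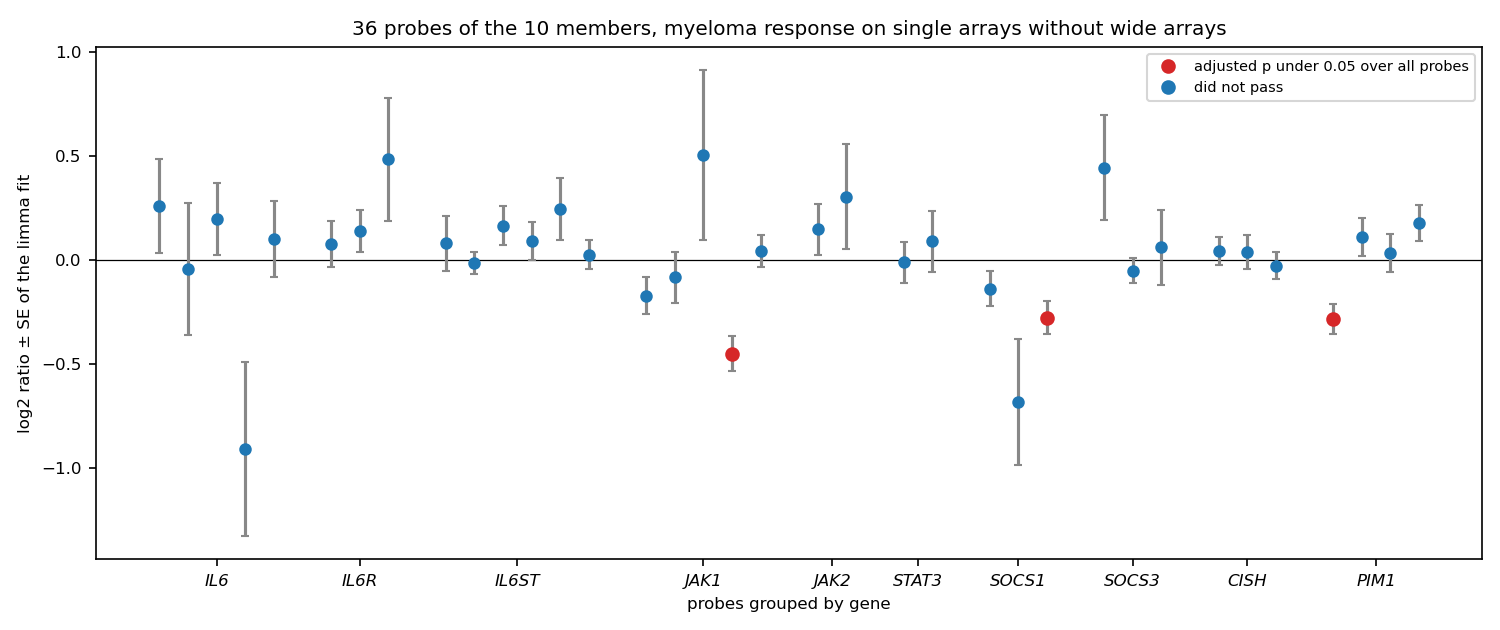
Points are the log2 response of the 36 probes, grouped by gene along the horizontal axis, over the 3 myeloma lines on arrays that were not wide; bars are the SE of the limma fit, and red points passed the adjusted threshold. PIM1 has a red probe below 0 beside others above 0. JAK1 has a red probe below 0 beside probe 30184 above 0, which has a much longer bar. The 3 SOCS1 probes are all below 0.

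These calls depended on the courses used. JAK1 probe 33435 passed without any course in turn except KMS12 with shCasp10-3 (adjusted p = 0.0715). PIM1 probe 17231 was lost without H929 repeat 1 (0.0506), KMS12 with shCasp10-2 (0.0562) or shCasp10-3 (0.197), or SKMM1 repeat 1 (0.0559), at values between -0.314 and -0.24. SOCS1 probe 35221 was lost without H929 repeat 1, H929 with shCasp10-3, either KMS12 course, or SKMM1 repeat 1 or 3 (limma adjusted p between 0.0515 and 0.292). With all arrays included, or with the sign of SKMM1 repeat 3 turned, none of the 3 passed and 0 probes of the array did, while all 3 stayed below 0.

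**Figure D4:**
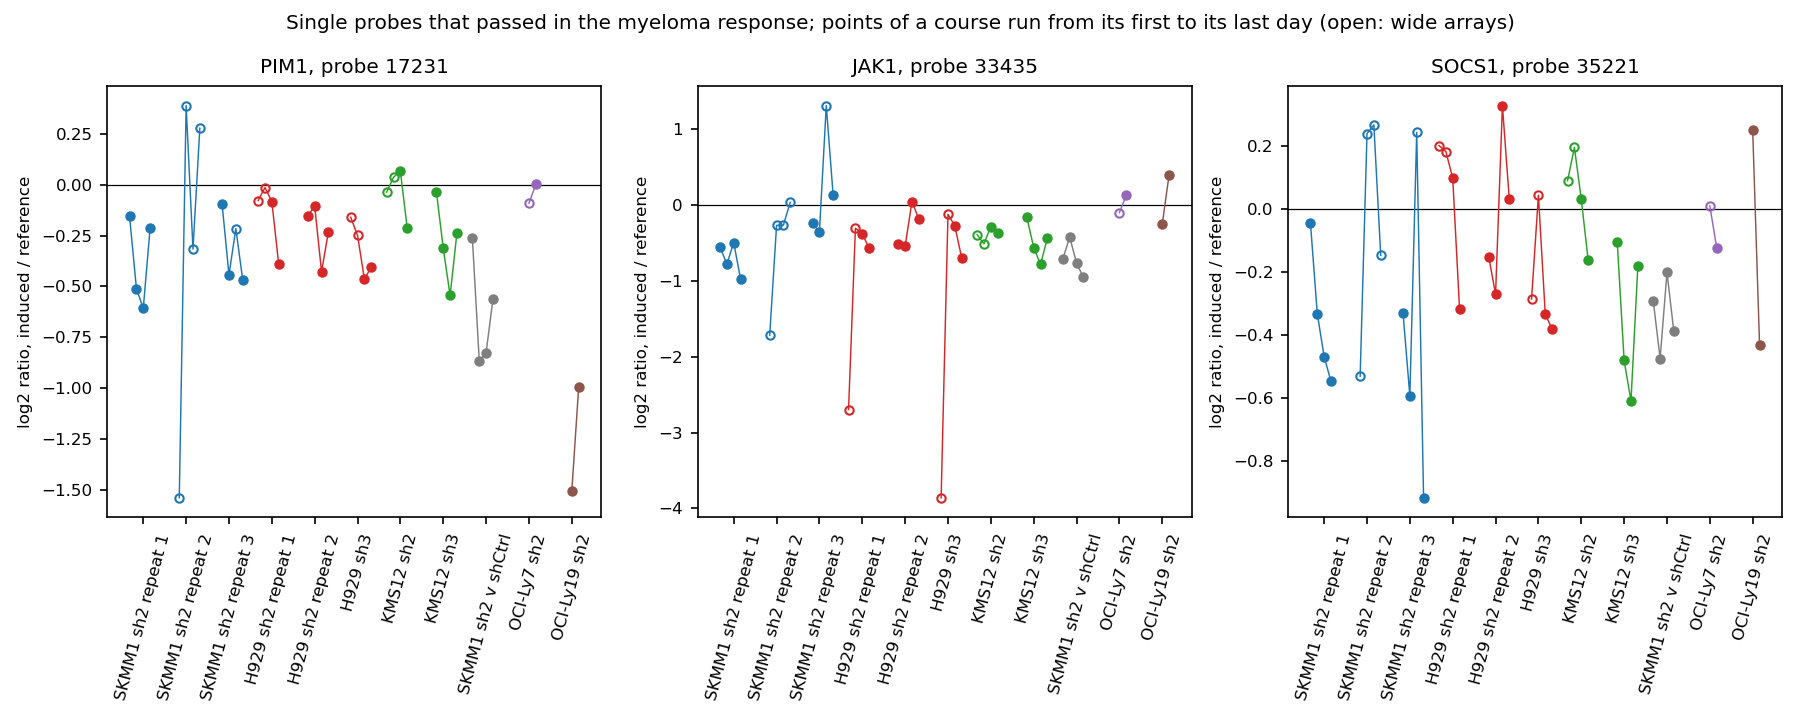
Log2 ratios of the 3 probes on every array by course (sh2 and sh3 are shCasp10-2 and shCasp10-3); joined points run from the first to the last day, and open circles are wide arrays. PIM1 probe 17231 is near or below 0 in nearly every course, with its lowest lymphoma values of -1.51 and -0.996 in OCI-Ly19.

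The control shRNA arrays asked whether a response persists when both channels hold induced cells. SOCS1 did not stay low: it read -0.02, 0.17, -0.05 and -0.06 on days 1 to 4, against -0.20, -0.54, -0.34 and -0.66 in SKMM1 repeat 1 with the uninduced reference. The values did not overlap, and the mean difference was -0.444 (SD 0.247, 4 of 4 days lower; exact sign-flip p = 0.125, the smallest that 4 days allow). In the limma fit this difference was -0.53 (SE 0.397, adjusted p = 1) with repeat 1 alone and -0.406 (SE 0.35, adjusted p = 0.917) with repeats 1 and 3, and 0% of features passed. Most of the SOCS1 gap lay in probe 24697. It read 0.231, 0.644, 0.319 and 0.258 against the control shRNA, and -0.86, -1.058, -0.229 and -1.427 in repeat 1. SOCS1 probe 35221 by contrast stayed below 0 against the control shRNA, at -0.29, -0.48, -0.20 and -0.39, with a response of -0.355 (limma adjusted p = 0.25). As gene means, IL6R followed the same course against both references, with -0.33, 0.23, 0.50 and 0.32 against the control shRNA. STAT3 did so too, with -0.04, -0.31, 0.05 and 0.70. The 3 IL6R probes did not run together: over days 2 to 4 they averaged -0.0497, 0.276 and 0.828 against the control shRNA. On day 1 probe 34452 read -0.967 there and 0.025 in repeat 1, while probe 35215 read 0.06 and -0.722. JAK1 and STAT3 were, like SOCS1, lower with the uninduced reference on 4 of 4 days (exact sign-flip p = 0.125 each). Their mean differences were smaller, at -0.0707 (SD 0.0495) and -0.0865 (SD 0.0471). Days of 1 course may not be independent, and the sign-flip test does not single out SOCS1. Whether the induced RNA of these 2 courses came from the same cells is not given in the labels, so they may not be independent. Against the control shRNA 0 of the 10 genes passed (7.82% of features did), and CASP10 was -0.66 (SE 0.143, limma adjusted p = 0.00938). By probe, JAK1 probe 33435 at -0.712 and PIM1 probe 17231 at -0.751 were lower, and IL6ST probe 27913 was higher at 1.17 (9.79% of probes called). With a single course, the spread in this test is that of the other groups.

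**Figure D5:**
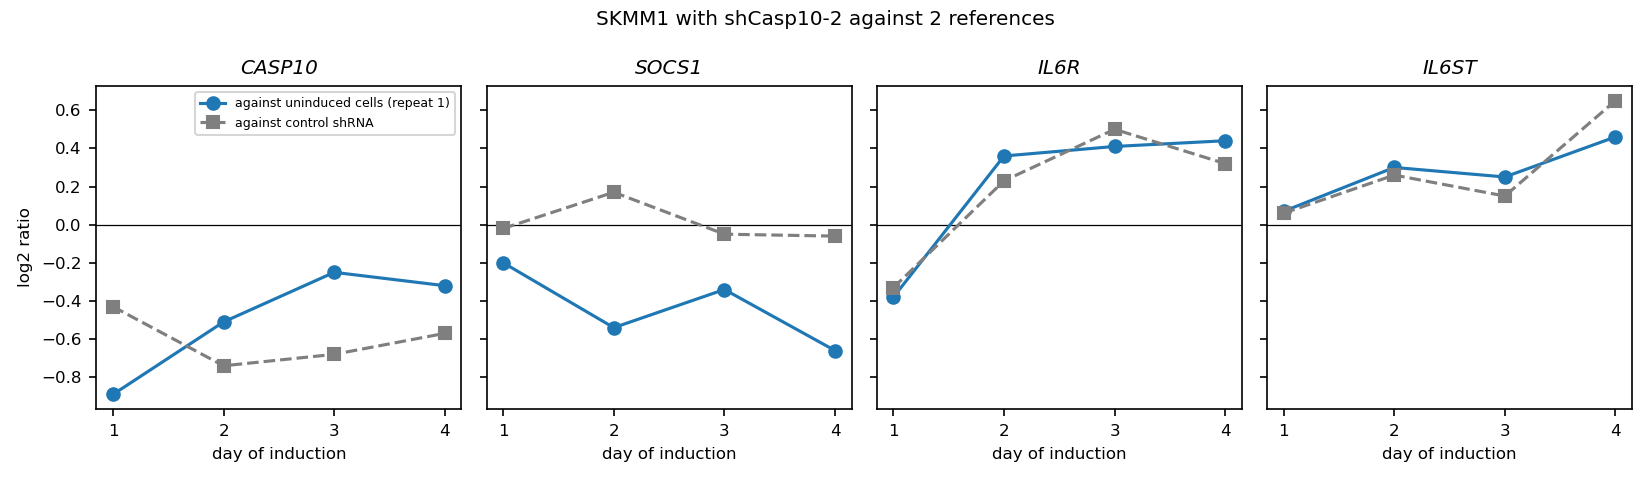
Log2 ratios of CASP10, SOCS1, IL6R and IL6ST in SKMM1 with shCasp10-2 on days 1 to 4, against uninduced cells (circles, repeat 1) and against control shRNA cells (squares); each point is 1 array. In these gene means SOCS1 separates by reference on all 4 days, while the IL6R and IL6ST lines run close together.

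The hairpins and days made no difference that passed. Between shCasp10-3 and shCasp10-2 in H929 and KMS12, 0 of 10 genes passed in limma, and 0 had an unadjusted p under 0.05; of all features 0.0413% and 6.13% did. The largest differences were JAK2 at 0.68 (SE 0.462) and STAT3 at -0.42 (SE 0.322). H929 with shCasp10-3 entered this comparison as 1 array, day 4, on which CASP10 read 0.025 and was not lower. For the change per day 0 of 10 passed, as did 0% of features, and 1 of 10 had an unadjusted p under 0.05 (10.2% of features). That was IL6R, which gained 0.16 per day (SE 0.0661, limma adjusted p = 0.475). With the SKMM1 day 5 arrays in the repeats their titles name, 0 of 10 passed too, and IL6R gained 0.19 (SE 0.0736, limma adjusted p = 0.507). In H929 alone 0 of 10 passed in limma (0% of features), with 0 at an unadjusted p under 0.05 (6.15% of features). In KMS12 alone 0 of 10 passed (0.0207%), with 1 at an unadjusted p under 0.05 (10.8%), CISH at -0.21 (SE 0.0943).

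CISH had a higher response to induction in the lymphoma lines, where CASP10 itself was above 0 on 3 of 4 arrays. OCI-Ly19 read 0.68 and 1.08 on days 3 and 4 and OCI-Ly7 0.26, on a wide array, and 0.47. All 4 lay above 0, and on days 2 to 4 the KMS12 arrays lay below it. The lymphoma response exceeded the myeloma response by 0.667 (SE 0.151, limma adjusted p = 0.0171), 1 of 10 genes against 7.33% of features. By probe the excess was 0.823, 0.913 and 0.265, the last not past the threshold (9.08% of all probes passed). Without OCI-Ly19 it was 0.462 (adjusted p = 0.284), with all arrays 0.585 (0.172), 0.642 (0.0517) when H929 repeat 1 was left out, and 0.652 (0.0515) when KMS12 with shCasp10-2 was. IL6 at 1.29 (SE 0.478, adjusted p = 0.126) and IL6R at 1.11 (SE 0.436, adjusted p = 0.151) did not pass. IL6R was 0.21 and 1.49 in OCI-Ly19 and 1.68 and 1.97 in OCI-Ly7. Of all probes on the day 4 array of OCI-Ly7 7.95% were above 3, and the part of this in the values was not tested.

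Among 54 measured of 65 other pathway genes, 1 was higher and 1 lower in limma in the myeloma response on single arrays, where 1.65% of all features were higher and 3.3% lower. TIMP1, a protease inhibitor and STAT3 target, fell by 0.51 (SE 0.11, adjusted p = 0.0174), and PIAS2, a SUMO ligase of the STAT inhibitor family, rose by 0.23 (SE 0.0605, adjusted p = 0.0333). Of 20 other STAT3 targets 16 were below 0 and 4 above, with a median of -0.105 against 0.0118 for all features. Of 12 other inhibitors and phosphatases 7 were below 0, and PIAS2 alone passed. Of 18 related cytokines and receptors 9 lay on each side of 0 and 0 passed, with IL10 at -0.45 (adjusted p = 0.0887) and IFNAR1 at 0.30 (adjusted p = 0.0946) nearest. All 4 measured STATs besides STAT3 lay above 0 and 0 passed, with STAT5A at 0.38 (adjusted p = 0.287) and STAT5B at 0.09 (adjusted p = 0.755). In SKMM1 5 of the 54 rose and 3 fell, where 13.7% of all features rose and 4.25% fell. The receptor chains IFNAR1 (0.66) and IL4R (0.81), the cytokine OSM (0.77), STAT5A (1.51) and SOCS2 (0.88) rose, and IL2RG (-1.02), BCL3 (-0.55) and TIMP1 (-0.95) fell. Against the control shRNA 5 fell and 0 rose, where 6.66% of all features fell and 1.16% rose, among them BCL3 at -1.12, CEBPB at -0.67, TIMP1 at -1.45 and IL10 at -1.25. In the lymphoma response against the myeloma response 3 of the 54 were higher and 1 lower, where 4.9% of all features were higher and 2.44% lower. The higher genes were IL4R, TIMP1, by 1.64, and SOCS2, by 1.48 (SE 0.402, limma adjusted p = 0.0417). MYC was lower, at -1.12.

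The named genes most like each of the 10 over the 28 arrays that were not wide, after median-centring, gave Spearman correlations from 0.548 to 0.864 for the closest. They were TAF4B for IL6 (0.862), MST1 for IL6R (0.864), BRCC3 for IL6ST (0.83), CCM2 for JAK1 (0.836), ESCO2 for JAK2 (0.843) and SF3B4 for STAT3 (0.8). For the inhibitors and PIM1 they were RCC1 for SOCS1 (0.607), ELP4 for SOCS3 (0.548), CLEC7A for CISH (0.76) and CHST15 for PIM1 (0.797). None of them was another gene of the 10. The second closest were PTK7, FER, NCOA2, RRP1B, CD79A and ARHGEF1 for the first 6 genes, in that order, and APTX, MMP28, BHMT and TNFAIP3 for the last 4. Arrays of a course share cells and reference, so these are descriptions.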

How the data were processed

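The values are log2 ratios that the authors deposited, 1 per probe for 15246 probes and 40 arrays with 0 missing, read as log2 of Cy5 over Cy3 per the labels. Base, background correction and any normalisation: not given in the sources used here; no scanner intensities were used, and the number of arrays limits the precision. Probes were named through the platform annotation, which is old (10169 probes with 1 symbol, 4 with several, 5073 not listed), and probes of a gene were averaged, giving 9681 features.

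The replicate was the time course; days of a course may come from 1 culture, and p-values then measure only the spread between these samples. limma 3.58.1 in R 4.3.3 was fitted over all features with Benjamini-Hochberg adjustment at 0.05: course means of days 2 to 4 of all arrays (8 courses), and 22 single arrays of days 2 to 4 that were not wide, with the course as a random block (within-course correlation 0.192). The lymphoma difference used 17 arrays of days 3 and 4 and the change per day 21 arrays. Lines were weighted equally. The fits were tested on simulated data. The genes, lists and comparisons were chosen with earlier results of these data known. The SKMM1 day 5 arrays were placed in repeats 2 and 3 by their database numbers, against the repeat numbers of their titles (1 and 2), and some arrays with no repeat number by the same means; placing day 5 by title was an alternative added after seeing the data. Alternatives were median-centring, scaling, all arrays, a 5% limit for wide arrays, median over probes, turned signs of SKMM1 repeats 2 and 3, leaving out each course, and single probes. Named genes were the 10 genes, CASP10, other pathway genes that passed or else the 2 of smallest p in a role, and the 2 closest neighbours of each gene; pathway genes named for SKMM1, the control shRNA and lymphoma were chosen after their values were seen.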

Additional observations from a re-analysis of the deposited data

Results flagged for a closer look

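A sample far from the others was found in 5 of 50 tests, each of 1 gene in 1 group of 4 to 10 arrays, and all 5 were on wide arrays. Chance flags about 1 in 20 tests, and tests of several genes on 1 array are not independent. SKMM1 against uninduced cells, with 12 arrays, was not tested. On day 1 of H929 repeat 1, IL6R was -7.07 (nearest -0.33), IL6ST -1.43 (nearest -0.46) and STAT3 -6.32 (nearest -0.26). PIM1 on day 2 of H929 with shCasp10-3 was 0.09 (nearest -0.23), and SOCS1 on day 2 of KMS12 with shCasp10-2 was -0.81 (nearest -0.04).

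Groups differed for IL6R and CISH. IL6R averaged 1.02 on 5 SKMM1 arrays, -0.316 on 5 KMS12 arrays and 1.22 on 3 lymphoma arrays, with SKMM1 and lymphoma all above 0 and KMS12 all below; the SKMM1 excess over KMS12 was 1.40 (limma adjusted p = 0.0399) and that of lymphoma over KMS12 was not tested. CISH averaged 0.14, -0.201 and 0.74 on the same arrays, again with KMS12 alone below 0; SKMM1 against KMS12 did not pass (limma adjusted p = 0.109), lymphoma against KMS12 was not tested, and lymphoma exceeded all myeloma by 0.667 (limma adjusted p = 0.0171).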

How the results depend on the processing

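The number of the 10 genes called moved with the setting. In the myeloma response on single arrays it was 0, against 1 with median-centring (SOCS1), 3 with wide arrays defined at 5% (JAK2, SOCS1 and SOCS3; 2594 of 9681 features called, against 479), 3 with probes fitted singly (JAK1, PIM1 and SOCS1), and 0 to 1 leaving out courses, with SOCS1 without H929 repeat 2 and IL6R at 0.529 without SKMM1 repeat 1 (limma adjusted p = 0.0185). In SKMM1 it was 1, against 0 with all arrays or repeat 3 turned, 2 at 5% (IL6ST and SOCS1; 2915 features, against 1741) or with the median over probes (IL6R and SOCS1; 1923 features), and 0 to 1 leaving out courses. In H929 it was 0, against 1 at 5% (JAK2; 332 features, against 0). Between SKMM1 and H929 it was 0, and 0 to 1 leaving out courses, with IL6R called without SKMM1 repeat 1 (limma adjusted p = 0.00099). Between SKMM1 and KMS12 it was 1, against 0 with all arrays, at 5%, with scaled arrays or repeat 3 turned, and 0 to 1 leaving out courses. For the change per day it was 0, against 2 with all arrays (IL6ST and JAK2; 1134 features, against 0); with all arrays and SKMM1 day 5 placed by title it was 0, with 0 features. Between lymphoma and myeloma it was 1, against 0 with all arrays, 2 at 5%, scaled or with the median over probes (IL6R and CISH; 3289, 1334 and 731 features, against 710), and 0 to 2 leaving out courses. Against the control shRNA it was 0, against 3 at 5% (IL6ST, JAK2 and SOCS3; 4162 features, against 757). The cause of these moves was not tested, beyond the fewer arrays left at 5%.

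Directions in the myeloma response turned as follows. With all arrays IL6R was -0.087, IL6ST -0.1, JAK2 -0.67, STAT3 -0.0184, SOCS3 -0.255, CISH -0.0606 and PIM1 -0.135. With SKMM1 repeat 3 turned IL6R was -0.351, IL6ST -0.0168, JAK2 -0.065, CISH -0.0164 and PIM1 -0.0499, and IL6R was -0.674 in SKMM1 and -0.341 between SKMM1 and KMS12. SOCS3 was -0.00803 with the median over probes, and PIM1 was -0.0332 at 5% and -0.00862 with scaled arrays. Leaving out courses, IL6 ranged from -0.222 to 0.105 (above 0 without H929 repeat 1 and, at 0.103, SKMM1 repeat 1), JAK1 from -0.114 to 0.0823 (above 0 without SKMM1 repeat 1), CISH from -0.00408 (KMS12 with shCasp10-3 left out) to 0.0419, and PIM1 from -0.0487 (KMS12 with shCasp10-2 left out) to 0.0896, with -0.00125 without SKMM1 repeat 3. SOCS1 stayed below 0 in every alternative of the single array fit that was run.

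SKMM1 and H929 share only repeat numbers: with the replicate block 0 genes passed (0 features, 1 at an unadjusted p under 0.05; 5 without the block), and same-numbered courses correlated at -0.467 and -0.616. The main limits are the few courses, the wide arrays and the unstated normalisation; signal over background is unknown.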
